A study of Mus musculus with 7 samples.

Results

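The cells described here are the oligodendrocyte lineage cells of mouse hippocampal cultures. A barcode was kept as a cell when 500 or more genes were detected in it and no more than 10% of its UMIs were mitochondrial (a UMI is a unique molecular identifier, which counts 1 captured RNA molecule). Members of the lineage were chosen by the measured UMIs of 3 transcription factors that mark it. A cell was a member when it held at least 1 UMI of Sox10 and at least 3 UMIs of Olig1 and Olig2 together. That gave 373 members among 26709 kept cells, or 1.40%. The hippocampi of newborn mice were dissociated with trypsin and the cells were plated on glass coverslips coated with poly-D-lysine, in a medium with B-27 supplement and fetal bovine serum, and every library shares this handling. Single-cell libraries of 3′ transcript ends were made after 1, 3, 5 or 7 days in vitro (DIV1, DIV3, DIV5 and DIV7). There was 1 library at DIV1 and 2 at each later day, 7 in all. The labels name no strain, genotype or treatment that differs between days, call the cultures neuronal, and do not say whether the replicate libraries came from separate cultures, so the p-values below measure the spread between libraries, which may be technical.

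Oligodendrocytes are the cells that wrap axons of the central nervous system in myelin, a stack of membrane that speeds conduction. They arise from dividing precursor cells that depend on the receptor for platelet-derived growth factor, Pdgfra, and carry the proteoglycan Cspg4 (NG2). On commitment the precursors leave the cell cycle, lose Pdgfra, pass through a short-lived stage with Bmp4, Enpp6 and Gpr17, and then, under the transcription factors Sox10 and Myrf, make myelin proteins such as Mbp, Mag and Mog.

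Depth allowed per-library sums over the members but few statements on single low genes. The 7 libraries held 36226566 to 114119537 UMIs each, and the members' median UMIs per cell ran from 10738 in DIV5 replicate 2 to 21854.5 in DIV3 replicate 1. The mitochondrial limit removed 576 barcodes in DIV7 replicate 1 and 42 to 246 in the other libraries. The mitochondrial share of the members left was 6.48% in DIV7 replicate 1 and 3.39 to 4.62% in the other libraries. Under a stricter limit of 1000 genes and 5% mitochondrial UMIs, 566 of 2955 kept cells and 0 of 6 members of DIV7 replicate 1 were left. Between 12 and 37 barcodes were shared by any pair of libraries. A level below is the UMIs of a gene summed over the members of a library, per 1000000 of their UMIs (CPM). In such sums, fewer cells of a type and less RNA per cell cannot be told apart.

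Several genes of the lineage that the choice of cells had not used stood at high levels in the members. Summed over all libraries, Mbp (myelin basic protein) was at 2120 CPM in the members and 8.19 CPM in the other kept cells. Bcas1, a gene of newly forming oligodendrocytes, was at 243 CPM against 1.38 CPM. Other genes of high ratio included Cldn11, Lhfpl3, Nkx6-2, Gjc3, Mobp, Ugt8a, Mag, Cnp and Pdgfra. Not every lineage gene was high: C1ql1, a gene of precursors, was at 21.0 CPM against 36.4 CPM, and Bmp4 at 7.29 against 4.18 CPM. The myelin genes were high from DIV3 on. At DIV1 a list of 32 of them summed to 341 CPM in the members and 407 CPM in the other cells. The members were chosen within these cells, so this is a description with no test.

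Free RNA in the droplets was gauged in cells that should lack the lineage's genes. Of the members, which had a median of 14671 UMIs per cell, 88.2% had a UMI of Lhfpl3, a gene of precursors. The share was 0.664% of 904 cells with microglia markers (median 14761.5 UMIs) and 2.64% of 4957 cells with neuron markers (median 9397 UMIs). Pdgfra was found in 58.2% of members, against 1.77% and 1.57% of those cells. Gpr17, a receptor of newly committed cells, was in 35.1% against 0.221% and 0.222%, and Enpp6, a choline phosphodiesterase of the same stage, in 13.9% against 0.332% and 0.141%. Bmp4, a secreted ligand, was in 6.43% against 1.33% and 0.565%. Cspg4 was found in 25.7% of members, against 16.7% of the microglia-marker cells and 1.59% of the neuron-marker cells. Mbp was present in 50.4% of members, against 20.0% of the microglia-marker cells and 5.10% of the neuron-marker cells. Mag was in 13.7% against 10.8% and 0.242%, so its high share was in the microglia-marker cells only, and its source was not tested. A single UMI of either gene thus said little against microglia-marker cells, and their levels per cell were used instead.

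The edge of the choice was not sharp. The 23 members with exactly 3 Olig UMIs had Lhfpl3 in 91.3% and Pdgfra in 39.1%, and the 24 cells with Sox10 and 2 Olig UMIs, just outside, had them in 75.0% and 37.5%. Sox10 was held by a single UMI in 163 members, of which 86.5% had Lhfpl3 and 69.3% Pdgfra. The cells left out with 3 or more Olig UMIs and no Sox10 were 3436, far more than the members. Lhfpl3 was in 12.9% of them, Pdgfra in 7.51% and the astrocyte water channel Aqp4 in 84.5%, whereas Aqp4 was in 19.6% of the members. By library its share of members ran from 1.75% at DIV1 to 66.7% in DIV7 replicate 1 (4 of 6), with 38.5% in DIV3 replicate 1.

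The members made up 57 of 4096 kept cells at DIV1 (1.39%, 95% exact binomial interval 1.06 to 1.80%). At DIV3 they were 78 of 5144 (1.52%) in replicate 1 and 37 of 2838 (1.30%) in replicate 2. At DIV5 they were 49 of 4300 (1.14%) and 133 of 3863 (3.44%, interval 2.89 to 4.07%). At DIV7 they were 6 of 2955 (0.203%) and 13 of 3513 (0.370%). Both DIV7 libraries were below every earlier library, and the DIV5 libraries differed from each other by more than any other pair of replicates. The mean share was 1.41% ± 0.150 at DIV3, 2.29% ± 1.63 at DIV5 and 0.287% ± 0.118 at DIV7 (SD, n = 2 each). A comparison of 2 libraries with 2 cannot give an exact two-sided permutation p below 0.33, so no share was tested between days, and all intervals on shares cover counting error only. Each kept cell was also thinned to 5000 UMIs, which left out 2700 shallower cells and 149 members met the same rule. The shares were then 0.747% at DIV1, with 0.288% and 0.564% in the DIV3 libraries, 0.686% and 1.70% in those of DIV5 and 0.110% and 0.223% in those of DIV7. The difference between the means of DIV7 and DIV3 was −0.259 percentage points at equal depth and −1.12 before thinning.

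Members were next placed on the path from precursor to committed cell by UMIs of 4 genes. The precursor gate asked for at least 2 UMIs of Pdgfra and Cspg4 together and none of Bmp4 or Enpp6, and held 169 members. The committed gate asked for at least 2 UMIs of Bmp4 and Enpp6 together and held 50 members. Of these, 4 also had precursor transcripts above the same limit. The remaining 154 members met neither. The limits lie among common values: 48 members of the precursor gate and 7 of the committed gate had exactly 2 UMIs, and 46 and 16 other members had 1.

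The committed share was higher at DIV7 than at the earlier days. None of the 57 members at DIV1 passed the committed gate, which allows a share of up to 5.26% by a limit of 3 cells (6.27% by the exact binomial interval). The DIV3 libraries had 4 of 78 members in the gate (5.13%) and 3 of 37 (8.11%), and the DIV5 libraries 9 of 49 (18.4%) and 24 of 133 (18.0%). At DIV7 it held 3 of 6 members (50.0%, interval 11.8 to 88.2%) and 7 of 13 (53.8%, interval 25.1 to 80.8%). The 2 libraries of a day were close together and those of different days did not overlap. The means were 6.62% ± 2.11 at DIV3, 18.2% ± 0.228 at DIV5 and 51.9% ± 2.72 at DIV7 (SD, n = 2 each), and no permutation p below 0.33 was possible. Within members thinned to 5000 UMIs the shares were 2.56% and 2.78% for DIV3, 16.3% and 12.1% for DIV5, and 0% and 33.3% for DIV7. At equal depth both DIV5 libraries were still above both DIV3 libraries, while DIV7 replicate 1 was below them. Thinned to 3000 UMIs, the DIV7 libraries were at 33.3% and 23.1%, above DIV5 (8.16% and 10.5%) and DIV3 (0% and 5.41%).

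The precursor share had no steady order before DIV7. It was 57.9% at DIV1, was 24.4% and 40.5% in the DIV3 libraries and 51.0% and 55.6% in those of DIV5, and was 0% and 23.1% at DIV7, where 0 of 6 members allows up to 50.0% by the limit of 3 cells (45.9% by the exact interval). DIV3 replicate 1, the library with the lowest precursor share before DIV7, also had the most members in neither gate.

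A further gate, added after the data were seen, asked for at least 2 UMIs of Mag, Mog, Mobp and Opalin together, genes of mature myelin. It held 0 of 57 members of DIV1, 11.5% and 10.8% of those of DIV3, 18.4% and 9.77% of those of DIV5 and 66.7% and 61.5% of those of DIV7. In all, 47 members passed it, and 36 of them also passed the committed gate. Most members with mature myelin transcripts thus also held Bmp4 or Enpp6.

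**Figure D1:**
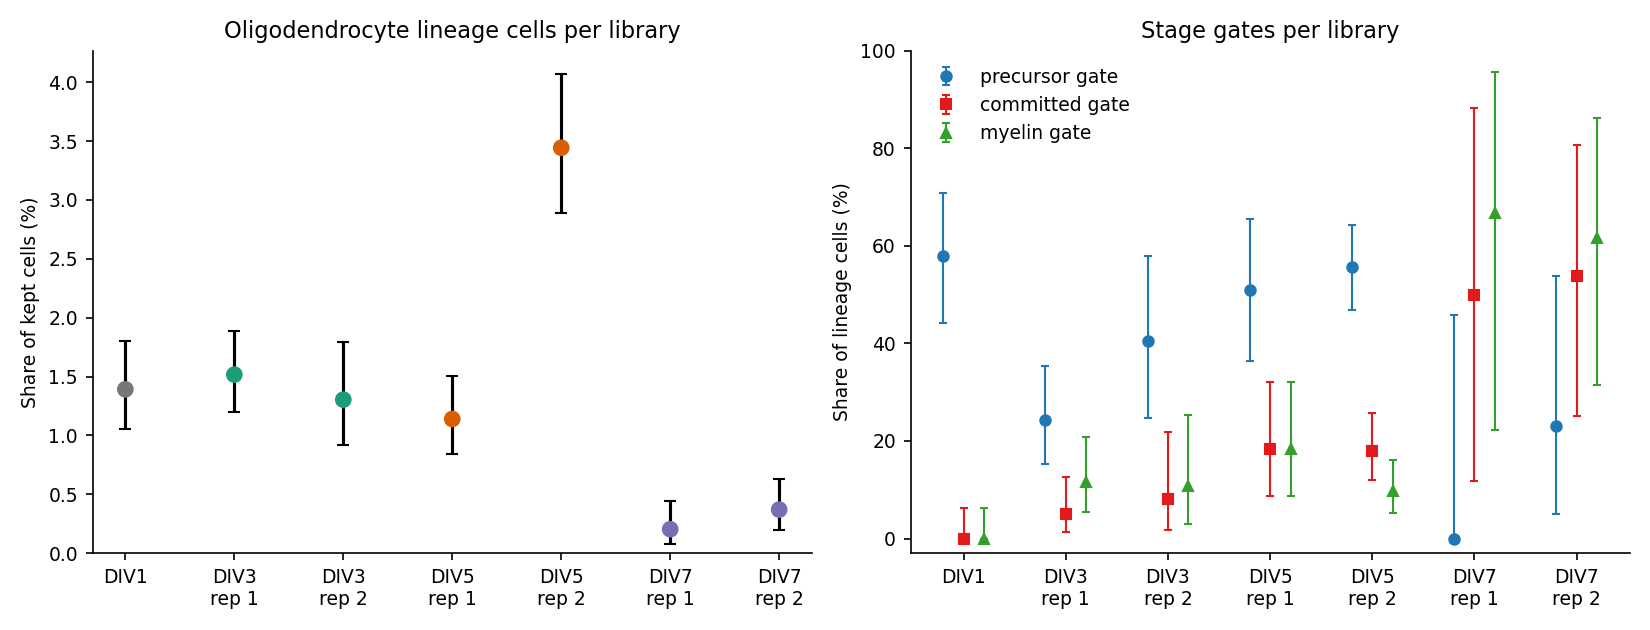
Left, members as a percentage of kept cells in each library, with 95% exact binomial intervals; right, the percentage of members in the precursor, committed and myelin gates in each library, with the same intervals. The committed points run from 0% at DIV1 to 50.0% and 53.8% at DIV7, and both DIV7 libraries have the lowest member shares.

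Levels of the stage genes are given next. Pdgfra, Cspg4, Bmp4 and Enpp6 set the gates, so for them levels and gate shares are not independent. Pdgfra was at 106 CPM at DIV1, 46.5 and 99.3 CPM at DIV3, 119 and 189 CPM at DIV5, and 0 and 60.4 CPM at DIV7. Cspg4 was at 34.9 CPM at DIV1, 6.35 and 5.52 CPM at DIV3, 36.1 and 30.9 CPM at DIV5, and 0 and 13.9 CPM at DIV7. Both precursor genes were highest at DIV1 or DIV5, and both overlapped between DIV3 and DIV7, Cspg4 on 3 UMIs in 1 cell of DIV7 replicate 2.

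Enpp6 was not found at DIV1 and stood at 25.9 and 17.9 CPM at DIV3, 146 and 102 CPM at DIV5, and 251 and 265 CPM at DIV7. Its levels separated all 4 days. Gpr17, by contrast, was at 28.9 CPM at DIV1, 35.4 and 37.3 CPM at DIV3, 36.1 and 94.2 CPM at DIV5, and 293 and 251 CPM at DIV7, so that only DIV7 stood clear. Bmp4 was low at every day, from 0 to 21.0 CPM. Myrf, the transcription factor that turns on myelin genes, was at 0.997 CPM at DIV1, 10.0 and 13.8 CPM at DIV3, 37.4 and 49.5 CPM at DIV5, and 241 and 246 CPM at DIV7.

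The myelin genes were lowest at DIV1 and highest at DIV7. Mbp was at 28.9 CPM at DIV1, 684 and 894 CPM at DIV3, 4431 and 2072 CPM at DIV5, and 9997 and 17205 CPM at DIV7. Cnp, a phosphodiesterase of the myelin cytoplasm, was at 20.9 CPM, then 271 and 172, 769 and 353, and 1666 and 1885 CPM. Mag, an adhesion molecule on the inner myelin wrap, was at 0 CPM, then 21.7 and 27.6, 178 and 40.4, and 566 and 919 CPM. In these 3 genes the libraries of the 4 days did not overlap, and at DIV5 replicate 1 was above replicate 2 in each. The late genes Mog, Mal and Ermn were at 0 CPM at DIV1 and DIV3 and were found at DIV5 mainly in replicate 1, with Mog at 33.5 CPM there and 0.532 CPM in replicate 2. At DIV7 Mog was at 346 and 209 CPM.

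**Figure D2:**
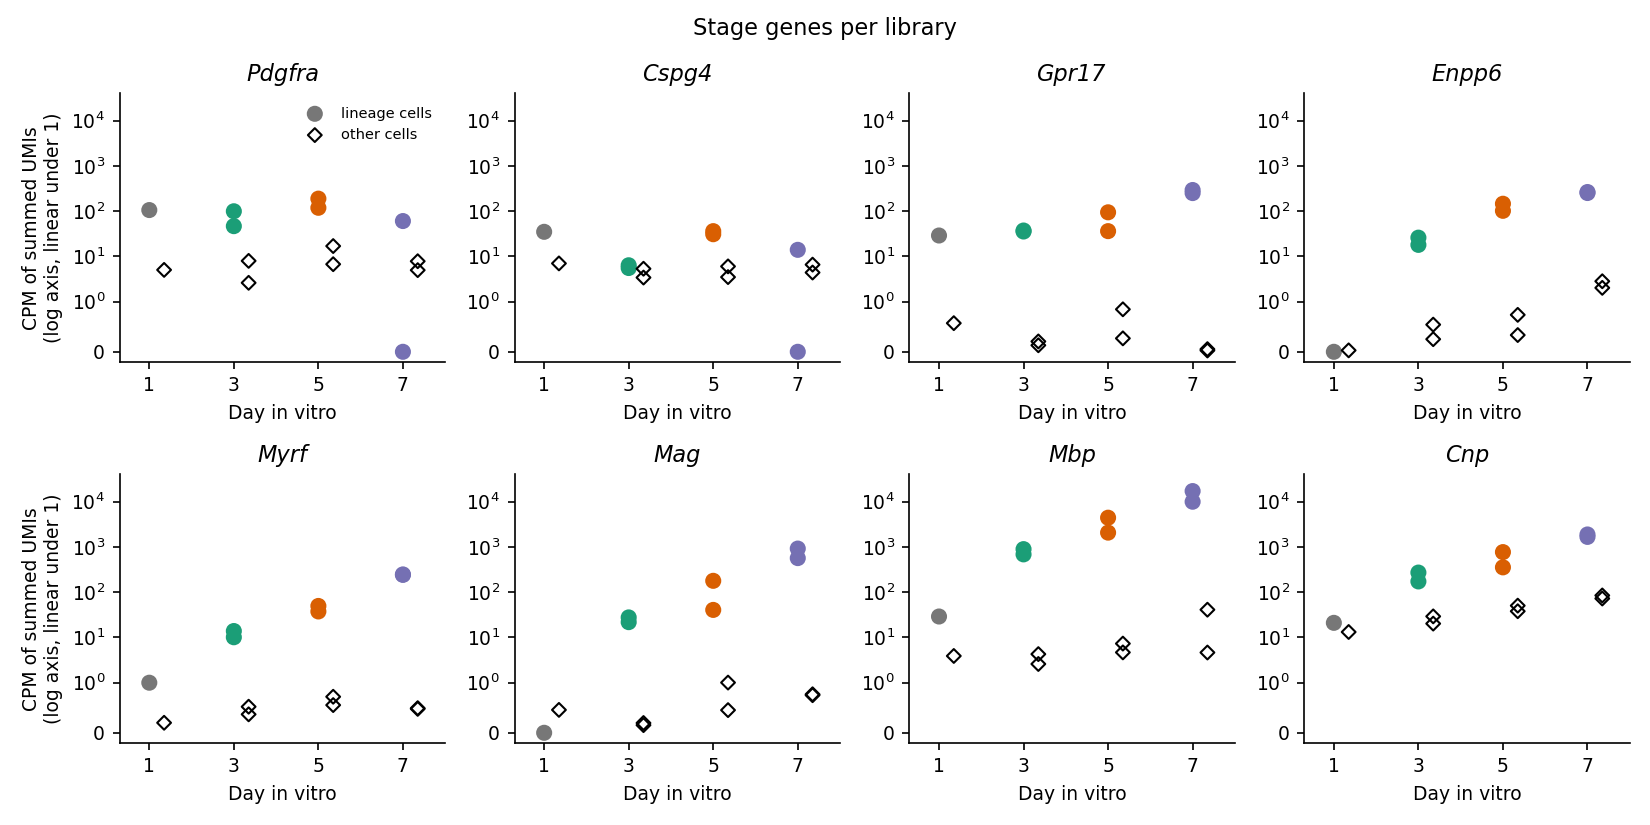
Level of 8 precursor, committed and myelin genes in the members (filled) and the other kept cells (open) of each library, in CPM on an axis that is logarithmic above 1, by day in vitro; each point is 1 library. Enpp6, Myrf, Mbp and Cnp are highest in the DIV7 libraries, while Pdgfra ranges from 0 to 189 CPM without a steady order.

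At DIV7 against DIV3, 17 of 31 tested myelin genes and 8 of 27 tested committed genes rose. With edgeR's quasi-likelihood test, a Benjamini-Hochberg adjusted p under 0.05 and 1 mean per day in a fit over all 7 libraries, 165 of 10253 genes passed (1.61%), of which 142 were higher (1.38%) and 23 lower (0.224%). Of the myelin list, 31 of 32 genes could be tested and 17 of those rose, with none lower and a median log2 fold change of 3.71 against −0.12 over all genes tested. Of the committed list, 27 of 28 could be tested, 8 rose and none fell, with a median of 1.88. Without DIV7 replicate 2, 4 myelin and 2 committed genes rose, without DIV3 replicate 1 it was 5 and 6, and without DIV5 replicate 1 or 2 it was 25 or 26 and 16, with none lower in any of these. Genes that were high only at DIV7 pass the low-count filter through those libraries, so these counts are over tested genes and not over the whole lists.

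Tmem88b, a membrane protein gene of the myelin program, was at 5.29 and 4.14 CPM at DIV3 and 126 and 288 CPM at DIV7 (log2 fold change 5.45 ± 0.58, standard error taken here and below from the test's F statistic; adjusted p = 0.000268). Ugt8a, which makes the myelin lipid galactosylceramide, was at 47.6 and 71.7 against 660 and 590 CPM (3.43 ± 0.37, adjusted p = 0.000268). For genes described above, the log2 fold change was 4.40 ± 0.47 for Myrf (adjusted p = 0.000268), 3.53 ± 0.42 for Enpp6 (adjusted p = 0.000426), 2.91 ± 0.47 for Gpr17 (adjusted p = 0.00444) and 4.15 ± 0.42 for Mbp (adjusted p = 0.000629). Mag rose by 4.98 ± 0.71 (adjusted p = 0.0116).

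Other large rises were in genes absent or nearly so at DIV3. Mal, a raft protein of compact myelin, had no UMI at DIV3 and was at least 112-fold higher at DIV7, and Ermn, a cytoskeletal protein of mature oligodendrocytes, at least 70.1-fold higher (both against a limit of 3 UMIs over the DIV3 libraries together). Tmem125 went from 1 UMI to 23, a ratio of 194 (counting interval 31.4 to 7974), and Apod had 1 and 18, a ratio of 151 (23.9 to 6312). Adamts4, a proteoglycanase, was at 0.529 and 4.14 against 83.8 and 130 CPM, Kndc1 at 2.64 and 4.14 against 94.3 and 125 CPM, and the kinase Cdk18 at 1.06 and 4.14 against 94.3 and 55.7 CPM. Hist1h4h, a histone gene with near-identical copies that can share reads, had 3 against 21 UMIs, a ratio of 58.9 (17.6 to 308). All 8 genes passed the test. Mog, at least 219-fold higher, did not (adjusted p = 0.275), and neither did Bmp4 (3 against 6 UMIs, ratio 16.8, counting interval 3.59 to 104, adjusted p = 0.153).

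Changes of precursor genes at DIV7 were less clear. In DIV7 replicate 1, with 6 members, 7 of the 28 listed genes had no UMI, so a fall could be missed. In the precursor list 1 of 26 tested genes rose and none fell (median −0.16), the riser being Cntn1, an adhesion molecule, at 78.3 and 159 against 346 and 423 CPM. The log2 fold change of Pdgfra was −0.84 ± 0.77 (adjusted p = 0.681). Among 29 tested lineage transcription factors, Myrf, Tcf7l2 (1.59 ± 0.38, adjusted p = 0.0482) and St18 rose, and Nkx2-2 stood at 0.08 ± 0.56 (adjusted p = 0.966). Of 26 cholesterol synthesis genes, Scd2 rose by 1.40 and Fdps fell by 2.08 on the log2 scale.

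The 10 largest falls at DIV7 included genes of several kinds. Selenom, a selenoprotein of the endoplasmic reticulum, was at 2147 and 1516 CPM at DIV3 and 241 and 186 CPM at DIV7 (−3.12 ± 0.35, adjusted p = 0.000299), although DIV1 was lower still at 75.8 CPM. Igfbp2, a binding protein for insulin-like growth factors, was at 952 and 308 against 21.0 and 51.1 CPM (−3.96 ± 0.72, adjusted p = 0.0294). Thbs1 (thrombospondin) and Eln (elastin) had no UMI at DIV7 and were at least 9.59-fold and 4.87-fold lower. Igfbp3, Cck, Eif4ebp1, Cav1, Lhx2 and Psma6 also fell. Markers of mural cells, which wrap vessels, moved with these: their list of 13 genes summed to 850 and 139 CPM in the DIV3 members and 10.5 and 51.1 CPM at DIV7, and Acta2 went from 1234 UMIs to 2. Their part in these falls was not tested.

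The count of changed genes between DIV3 and DIV7 rests on 19 cells at DIV7. Leaving out DIV7 replicate 2 gave 11 genes and leaving out DIV7 replicate 1 gave 72, while leaving out DIV3 replicate 1 gave 35 and leaving out DIV3 replicate 2, DIV5 replicate 1 or DIV5 replicate 2 gave 277, 365 and 386. Tmem88b kept its call in all 21 alternatives tried, Myrf, Ugt8a and Selenom lost theirs in 1, and Mbp in 5.

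At DIV7 against DIV5, 7 tested myelin genes rose and 3 tested cell cycle genes fell. In the same fit 47 of 10253 genes passed (0.458%), 38 higher (0.371%) and 9 lower (0.0878%). Of the 31 tested myelin genes, 7 rose (median 2.43 against −0.09 over all genes), among them Mbp (2.22 ± 0.39, adjusted p = 0.0344), Ugt8a, Gjc3, Tspan2, Nfasc and Tmem88b. Of 27 committed genes 3 rose, Myrf (2.60 ± 0.42, adjusted p = 0.0222), Tns3 and Epb41l2. Of 43 cell cycle genes 3 fell and none had a positive log2 fold change (median −2.16, or −1.79 with genes absent at DIV7 set at their bound). None of the myelin and cell cycle genes passed without DIV7 replicate 1 or without DIV7 replicate 2.

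Top2a, which untangles chromosomes in dividing cells, was at 326 and 320 CPM at DIV5 and 10.5 and 78.9 CPM at DIV7 (−2.45 ± 0.51, adjusted p = 0.0492). Tyms, which makes thymidylate for DNA, had 2 libraries at 108 and 66.0 CPM against 0 and 4.64 CPM, a ratio of 24.4 (counting interval 4.32 to 966). Nusap1, a spindle protein, was at 148 and 124 against 0 and 9.29 CPM, a ratio of 20.4 (5.60 to 169). Sapcd2 and Pmf1 had no UMI at DIV7 and were at least 6.28-fold and 6.01-fold lower. The largest rises were outside the lineage lists, in Tnni1, Birc2, Loxl2, Tmod1 and H19, for instance Birc2 (an inhibitor of apoptosis) at 15.5 and 8.52 against 147 and 181 CPM. Of these, H19 changed direction when members that hold other cells' markers were left out, a fit in which DIV7 replicate 2 alone stood for DIV7. The number of genes that passed fell to 3 without DIV7 replicate 1 and to 1 without DIV7 replicate 2, was 0 when only the libraries of these 2 days were fitted, and was 88 and 130 without DIV3 replicate 1 or 2 and 153 and 123 without DIV5 replicate 1 or 2. Over 21 alternatives the call was lost in 13 for Mbp and 9 for Myrf. When every library was scaled by its total count alone, the 45 calls split into 27 higher and 18 lower.

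No gene passed at DIV5 against DIV3 in a fit of the 5 libraries up to DIV5 (0 of 10504, 0%), where 510 genes had an unadjusted p below 0.05 and DESeq2 called 9. The count was 98 without the low-count filter and 130 under the stricter gate of 2 Sox10 and 5 Olig UMIs, which keeps 4 libraries. It was 377 of 9971 in a fit of the 4 libraries of DIV3 and DIV5 with equally numbered replicates as a block. Deviations of those libraries correlated at 0.486 between these 2 days, but the labels do not say that the numbers pair. The myelin list had 22 of 27 tested genes above 0 (median 1.04 against 0.0047 over all genes) and the committed list 22 of 26 (median 0.46). Mbp stood at 1.94 ± 0.37 (adjusted p = 0.296) and Enpp6 at 2.32 ± 0.42 (adjusted p = 0.294). In the cell cycle list 42 of 43 genes were above 0, with a median of 1.14. The count was 61 when DIV3 replicate 2 was left out, 43 without DIV5 replicate 1 and 69 without its replicate 2.

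At DIV3 against DIV1, 4 of 10504 genes passed in the same fit (0.0381%), all higher, and 62 with DESeq2. Mbp stood at 28.9 CPM at DIV1, below both DIV3 libraries, and rose by 4.83 ± 0.60 (adjusted p = 0.0247). Gjc3, a connexin of oligodendrocytes, had 2 UMIs at DIV1 against 57.1 and 71.7 CPM at DIV3, a ratio of 30.7 (counting interval 8.36 to 256). Selenom and Mt3, a metallothionein of glia at 156 against 1491 and 1370 CPM, were the others. The astrocyte list moved with them: 16 of 18 tested genes were above 0 (median 2.55), and its sum was 2485 CPM at DIV1 against 10605 and 5387 CPM. Its part in these rises was not tested. Nkx6-2, a homeobox factor of the lineage, went from 3 to 571 UMIs, a ratio of 73.0 (24.9 to 355), without passing the test. DIV1 has a single library, whose spread is taken from the other days. No gene passed without the cells of top Scrublet scores (0 of 10078, 699 at an unadjusted p below 0.05), and the count was 36 without DIV3 replicate 1, 384 without DIV3 replicate 2 and 196 without either DIV5 library.

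Mbp was also counted per cell in each gate. In the 50 members of the committed gate the median was 158.5 Mbp UMIs, 45 cells had at least 10 and 36 had at least 100, with a highest value of 950 and 2 cells at 0. In the 169 members of the precursor gate the median was 0, 105 cells had none and 1 had 10 or more, at 30. Among the 154 members in neither gate 18 had at least 10 and 3 at least 100. Mbp was not used by the gates, though it comes from the same cells.

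The 39 members with 100 or more Mbp UMIs numbered 0 at DIV1. The DIV3 libraries had 5 and 2 of them, the DIV5 libraries 8 and 14 and the DIV7 libraries 2 and 8. From DIV3 on they held between 64.4% and 99.9% of all Mbp UMIs of the members of their library. At DIV7 these were 2 of 6 and 8 of 13 members.

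**Figure D3:**
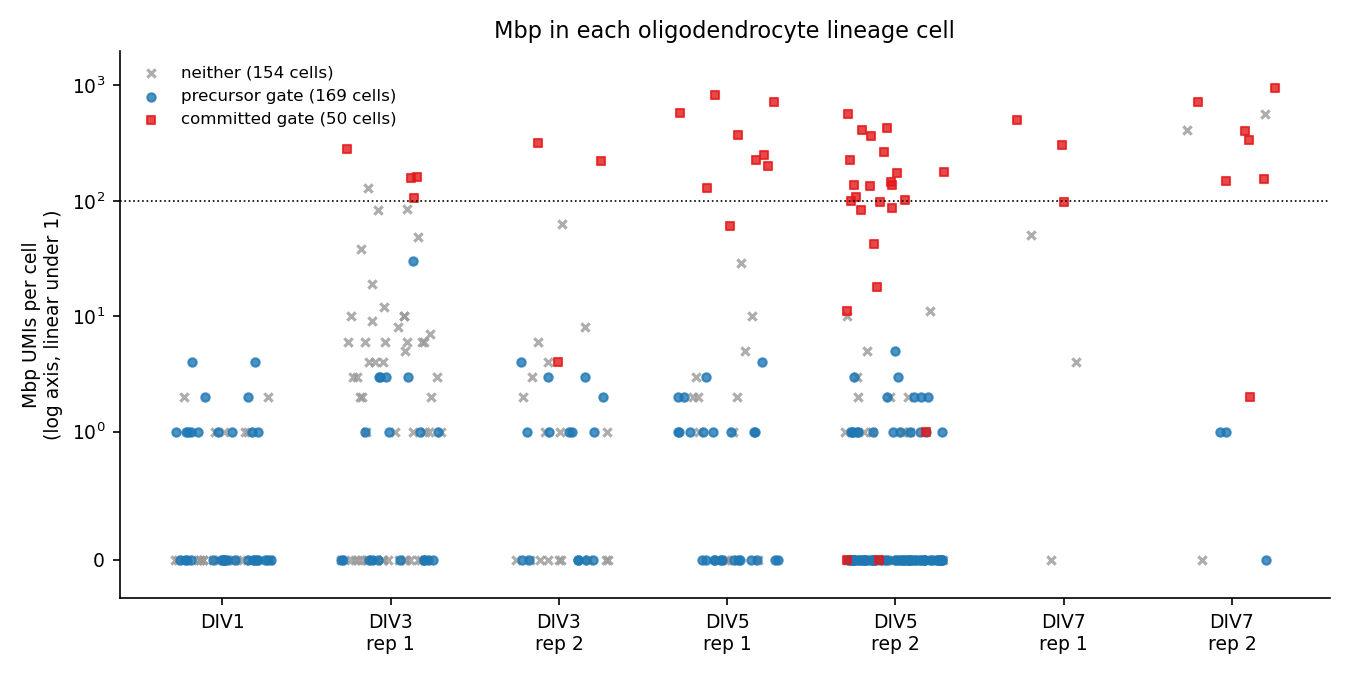
Mbp UMIs in each member by library and stage gate, on an axis that is logarithmic above 1; each point is 1 cell and the dotted line marks 100 UMIs. Of the 50 members of the committed gate 36 reach 100 UMIs, and 105 of 169 members of the precursor gate are at 0.

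Committed-gate and precursor-gate members were compared within libraries, as paired sums in the 5 libraries with at least 3 cells of each, namely both of DIV3, both of DIV5 and DIV7 replicate 2. The levels below are given in that order. Pdgfra, Cspg4, Bmp4 and Enpp6 chose the cells and are not compared. With the library as a block, 743 of 3690 genes passed (20.1%), 422 higher in the committed gate (11.4%) and 321 lower (8.7%). Scaled by total count alone, 343 were higher and 490 lower, with the median of all genes moving from −0.05 to −0.22. Over all members of each gate, also those outside the 5 libraries, median depth was 14101 UMIs in the committed gate and 14318 in the precursor gate. Within the libraries it was 26806.5, 11523, 14400, 10704.5 and 13397 UMIs in the committed gate. In the precursor gate it was 18691, 11239, 16876, 10596.5 and 13295 UMIs, so depth was not matched in DIV3 replicate 1 and DIV5 replicate 1.

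Genes of committed and myelinating cells made up the largest rises. Mbp was at 103, 54.9, 43.4, 31.2 and 35.1 CPM in the precursor gate and at 6668, 13972, 23883, 10922 and 27232 CPM in the committed gate (8.10 ± 0.65, adjusted p = 0.00096). Mag had no UMI in the precursor gate and was at 199, 464, 980, 217 and 1222 CPM in the committed gate, at least 382-fold higher. Cnp was at 64.7, 77.5, 93.6, 52.3 and 70.2 CPM against 1620, 1804, 3715, 1612 and 2834 CPM (5.01 ± 0.19, adjusted p = 6.2e-09). These groups lay far apart in each library, including those of DIV3.

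Myrf had 3 UMIs in the precursor gate and 166 in the committed gate, a ratio of 169 (counting interval 56.9 to 829). Gpr17 was at 13.4, 12.9, 9.13, 17.1 and 0 CPM against 123, 180, 71.0, 329 and 521 CPM (3.98 ± 0.39, adjusted p = 1.4e-05). Tmem88b, Parvb, Col20a1, Barx2 and Ddc were also among the 10 largest rises, and each kept its call in every alternative in which it could be tested. Parvb, a link between integrins and actin, was at 11.2, 3.23, 13.7, 3.02 and 0 CPM against 199, 464, 348, 354 and 431 CPM, and Ddc, the decarboxylase of dopamine and serotonin synthesis, at 4.46, 3.23, 2.28, 2.01 and 0 CPM against 56.8, 103, 63.9, 106 and 100 CPM.

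Of 28 committed and 32 myelin genes listed, 20 and 15 could be tested between the gates. Genes nearly absent from the precursor gate pass the low-count filter through the committed gate, so the counts are over tested genes. Over all tested genes 11.4% were higher and 8.7% lower. Without the genes of the gates, the medians of the 2 lists were 3.19 and 4.06, against −0.05 over all genes. Of the genes left, 18 of 19 committed and 13 of 15 myelin genes were higher and none lower. Among them, Sirt2, a deacetylase of the myelin sheath, rose by 3.97 ± 0.23 (adjusted p = 6.4e-07), and Nfasc, which joins the myelin loops to the axon, by 4.55 ± 0.23 (adjusted p = 7.2e-08). The long noncoding RNA 9630013A20Rik, a marker of newly formed oligodendrocytes, rose by 7.84 ± 0.34 (adjusted p = 1.4e-08).

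Precursor genes other than the gate's own moved less and not all in one direction. Of 18 tested, 8 were lower and 1 higher (median −0.73), beside 8.7% lower and 11.4% higher over all tested genes. Ptprz1, a receptor phosphatase of precursors, was at 544, 594, 612, 958 and 386 CPM in the precursor gate and 152, 258, 35.5, 257 and 110 CPM in the committed gate (−1.99 ± 0.31, adjusted p = 0.00062). Cacng4, Ednrb, Sox5, Serpine2, Cspg5, Dscam and Rgcc also fell, and Tnr, a matrix glycoprotein of the lineage, rose by 1.94. Without DIV5 replicate 1, or without DIV5 replicate 2, 5 of these genes fell and none rose. Lhfpl3 at 0.07 and Vcan at −0.36 did not pass.

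Over all tested genes 11.4% were higher and 8.7% lower, which the counts of this paragraph stand beside. Of 19 tested lineage transcription factors 5 were higher and 7 lower. Myrf, Zfp365, Zeb2, Sox2 and Tcf7l2, a factor of newly committed cells, rose, Tcf7l2 by 2.55 ± 0.38 (adjusted p = 0.00061). Sox5, Etv1, Tcf4, Nfix, Nfib and Nfia were among those that fell. Nkx2-2 stood at 0.43 ± 0.36 (adjusted p = 0.45). In the early progenitor list 8 of 16 genes were lower and 2, Sox2 and Sox4, higher.

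The counts of membrane proteins and enzymes that follow stand beside 11.4% of all tested genes higher and 8.7% lower. Among 15 tested ion channel and transmitter receptor genes, Kcnj10, Kcna6, Kcna1 and the chloride transporter Slc12a2 were higher, and Cacng4, Gria2 and Grin3a lower. Kcna1, a potassium channel subunit, was at 40.2, 54.9, 20.5, 48.3 and 87.8 CPM against 275, 77.3, 298, 189 and 240 CPM (2.40 ± 0.39, adjusted p = 0.00082), and Grin3a, a glutamate receptor subunit, fell by 3.33 ± 0.52 (adjusted p = 0.00053). Of 13 growth factor and adhesion receptors, Plxnb3, a semaphorin receptor, and Tnfrsf21 rose, and Ntrk3 and Nrp2 fell. Of 23 cholesterol synthesis genes 3 rose, Hsd17b7 and Scd2 among them, Insig1 fell, and the median was −0.11. The receptor and cholesterol counts were near those shares.

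**Figure D4:**
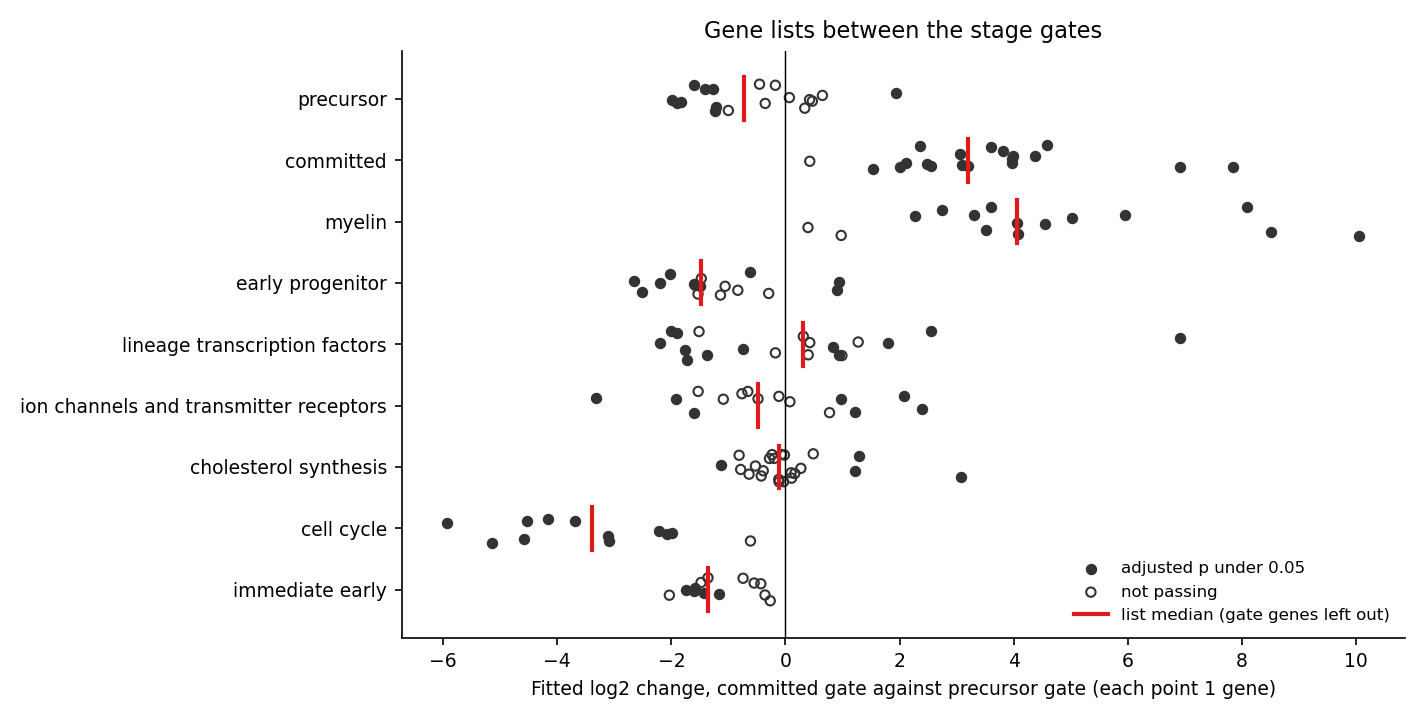
Log2 fold change of each tested gene between committed-gate and precursor-gate members, by gene list, with the list median and without the genes that set the gates; filled points passed the test. The committed and myelin lists have medians of 3.19 and 4.06, and the cell cycle list one of −3.40.

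The 10 largest falls were in Ccna2, Ube2c, Tpx2, Prc1, Pbk, Pclaf, Cdca3, Top2a, Cdkn2c and Cenpa, genes of cell division and its control. Of 43 listed cell cycle genes 12 could be tested. Of these 11 were lower in the committed gate (median −3.40), beside 8.7% of all tested genes, and Cdk4 was the one that did not pass. Genes nearly absent from the committed gate pass the low-count filter through the precursor gate, so this count is over tested genes. Top2a was at 297, 93.6, 452, 449 and 298 CPM in the precursor gate and 0, 0, 7.10, 51.4 and 0 CPM in the committed gate (−4.17 ± 0.49, adjusted p = 8.9e-05). Ube2c, which tags mitotic proteins for destruction, was at 477, 96.8, 555, 375 and 386 CPM against 0, 0, 0, 25.7 and 0 CPM (−5.14 ± 0.54, adjusted p = 4.8e-05). Ccna2, the cyclin of DNA replication and entry to mitosis, had 227 UMIs against 1, a ratio of 74.2 lower (counting interval 13.2 to 2945). In the committed gate, Top2a and Ube2c passed 10 CPM in DIV5 replicate 2 and in no other library.

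Neuron-marker RNA was counted in both gates. Of the 169 precursor-gate members 36 also held at least 5 UMIs of 7 neuron genes, against 5 of the 50 committed-gate members, which was not tested. Gap43, a growth cone protein, was the one of 8 tested neuron markers that passed, at 765, 1060, 582, 730 and 1400 CPM against 265, 284, 92.3, 409 and 60.1 CPM. The list's median was −1.58, and it was 1.59 over 4 tested genes when members with markers of other cell types were left out, a fit of 2 libraries. In that fit 30 of 34 tested cell cycle genes were lower, beside 334 of all 4376 genes tested. The part of neuron RNA in the other falls was not tested. The count of 743 was 474 without DIV5 replicate 1 and 488 without DIV5 replicate 2, and 302 when dividing members were left out.

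Start regions of 3 of the 10 largest rises are shown because Sox10, which chose the cells, binds SOX-type sites. The letters ACAAAG and ACAATG were searched on both strands in the 250 bases before each start in RefSeq's table (GRCm38.p6), where 7608 of 27025 genes (28.15%) held at least 1. Of the 10 largest rises 6 were in that table and 5 held a match, and of the 10 largest falls 7 were in it and 1 held a match. A gene with several starts has more chances of a match, the numbers are small, and no test was made. A match is a run of letters and not a bound site. The regions below are printed in the direction of the gene with the match in capitals, as ACAAAG or ACAATG or as their reverse complements CTTTGT and CATTGT.
Mag, chr7:30914959-30915014, minus strand: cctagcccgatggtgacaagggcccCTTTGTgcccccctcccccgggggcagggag
Tmem88b, chr4:155785932-155785987, minus strand: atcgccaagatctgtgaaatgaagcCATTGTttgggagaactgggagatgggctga
Cnp, chr11:100574747-100574802, plus strand: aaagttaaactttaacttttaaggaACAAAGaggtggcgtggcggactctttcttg
The matches begin 126, 88 and 167 bases before the start of Mag, Tmem88b and Cnp, and Mag and Tmem88b carry them on the opposite strand.

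Dividing members were counted as those with at least 2 UMIs over 6 cell cycle genes. They were 22 of 57 at DIV1 (38.6%), 36 of 78 (46.2%) and 8 of 37 (21.6%) at DIV3, 32 of 49 (65.3%) and 74 of 133 (55.6%) at DIV5, and 2 of 6 (33.3%) and 5 of 13 (38.5%) at DIV7. The DIV5 libraries were the highest, and there the other kept cells had lower shares, of 44.7% and 21.3%. Other kept cells were also below the members in DIV1 (10.9%) and DIV7 replicate 2 (17.6%). They were above the members in DIV3 replicate 1 (50.8%) and replicate 2 (48.2%), and close to them in DIV7 replicate 1 (34.8%). Thinned to 5000 UMIs, the members' shares were 24.6% in the DIV1 library, 26.9% and 13.9% in those of DIV3, 59.2% and 49.2% in those of DIV5, and 0% and 25.0% in those of DIV7, so DIV5 stayed highest at equal depth.

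Dividing members were also counted by gate. Of the 169 precursor-gate members 104 were dividing, with 13 of 33 at DIV1, 12 of 19 and 3 of 15 at DIV3, 22 of 25 and 51 of 74 at DIV5, and 3 of 3 in DIV7 replicate 2. In the committed gate 11 of 50 met the same limit, with 2 of 4 and 0 of 3 for DIV3, 3 of 9 and 3 of 24 for DIV5, and 1 of 3 and 2 of 7 for DIV7. Top2a, Ube2c and Ccna2 had 0 UMIs in the committed gate of DIV3 replicate 1 and of DIV7 replicate 2. The 2 of 4 and 2 of 7 there thus rest on UMIs of other cell cycle genes, and whether those cells divided was not tested. At DIV1, 9 of the 24 members in no gate were dividing, close to the precursor gate there. Top2a in all members was at 92.7 CPM at DIV1, 125 and 127 CPM at DIV3, 326 and 320 CPM at DIV5, and 10.5 and 78.9 CPM at DIV7, and Mki67, a protein of dividing nuclei, at 16.9, then 58.2 and 38.6, 104 and 87.8, and 0 and 46.4 CPM. Free RNA of dividing cells enters such counts in every cell, and its part was not tested.

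Transcripts listed as markers of other cell types were present in the members to differing degrees by library. By the limits used to leave such members out, 137 of 373 held them, or 96 with Enpp2 taken off the choroid plexus list. The neuron list summed to 4004 CPM at DIV1, 2062 and 3293 CPM at DIV3, 1176 and 2898 CPM at DIV5, and 2159 and 2215 CPM at DIV7. In the other kept cells it summed to 4604 CPM, then 1400 and 1656, 1541 and 2415, and 1486 and 891 CPM. The members were thus above the other cells at DIV3, in DIV5 replicate 2 and at DIV7, and below them in DIV1 and DIV5 replicate 1. Whether the members made this RNA or took it up was not tested. In the 17 neuron genes tested at DIV3 against DIV1 none was above 0 (median −1.35), and none passed. The astrocyte or radial glia list summed to 2485 CPM at DIV1, 10605 and 5387 CPM at DIV3, 9180 and 7662 CPM at DIV5, and 4653 and 13509 CPM at DIV7, below the other kept cells of each library. The microglia list summed to 855 CPM in DIV3 replicate 2 and 369 CPM in DIV5 replicate 2, and to 9 to 130 CPM elsewhere, and the mural cell list to 850 CPM in DIV3 replicate 1. The interferon response list stood out in the members of DIV3 replicate 1, at 2713 CPM, against 209 to 847 CPM in the other libraries. The other kept cells of that library were also the highest, at 5468 CPM. At DIV7 against DIV3 none of 23 tested interferon genes passed (median −3.68, or −1.68 with absent genes at their bound).

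**Figure D5:**
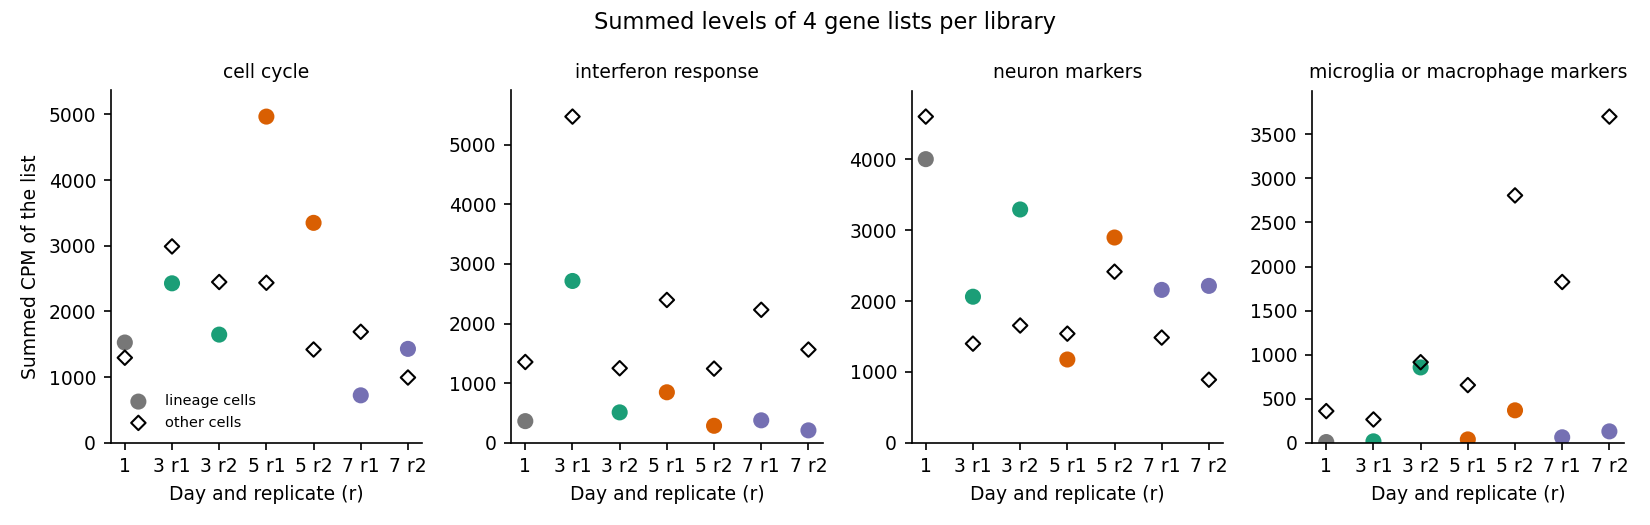
Summed level, in CPM, of the cell cycle, interferon response, neuron and microglia lists in the members (filled) and in the other kept cells (open) of each library. The members' cell cycle sum is highest at DIV5 replicate 1 at 4966 CPM, and their interferon sum at DIV3 replicate 1 at 2713 CPM.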

How the data were processed

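The deposited files held raw UMI counts per gene and barcode, 1 matrix per library, with 31053 genes. Per the submitters' processing notes the authors used Cell Ranger 4.0.0 and mm9; the matrix headers give software version 3.0.2, and the aligner settings are not given in the sources used here. No column of other samples was present. Kept cells, members and stage gates were set as described above (Python 3.11.15, scanpy 1.11.5). Doublets were scored, not removed: Scrublet called 340 of 28050 barcodes (1.21%), and leaving out the 952 top scores was an alternative.

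Raw counts were summed per library, or per library and stage gate, and edgeR 4.0.16 under R 4.3.3 fitted them (filterByExpr, TMM factors, robust two-sided quasi-likelihood test, Benjamini-Hochberg over all genes tested). DESeq2 1.42.0 was an alternative, with other scalings, filters, gates, thinning and leaving out each library. The planned minimums of 20 members per library sum and 10 cells per stage sum left DIV7 without a library and the stage comparison with 1, so minimums of 5 and 3, chosen after the data were seen, were used for those comparisons. On simulated counts, 74% of 200 genes changed 4-fold were recovered for DIV5 against DIV3, and 39% (4-fold) and 81.5% (16-fold) for DIV7 against DIV3. False calls at an adjusted p under 0.05 were 13 of 161 in the first of these, and 8 of 86 and 9 of 172 in the others.

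The members and lists were chosen with earlier results of these data known. Genes named are those of the stage list, the largest changes among called genes that averaged 20 CPM or more and whose groups did not overlap (10 each way at DIV7 against DIV3 and between the gates, 5 each way elsewhere), and 2 to 4 per list with the smallest p. Replicate numbers were not taken as pairs: deviations of equally numbered libraries correlated at 0.486 (DIV3 and DIV5), 0.055 (DIV3 and DIV7) and 0.041 (DIV5 and DIV7). Some genes that these rules pick are not reported here.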

Additional observations from a re-analysis of the deposited data

How the results depend on the processing

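The gene counts moved with the processing. The stricter gate, the stricter cell filter and leaving out dividing members or those with other cells' markers took DIV7 replicate 1 below 5 members. DIV7 counts under these settings rest on DIV7 replicate 2 alone, except with Enpp2 off the choroid list. With the minimum of 20 members, the stricter gate left only replicate 1 at DIV3, and leaving out dividing members only replicate 2 at DIV5. At DIV7 against DIV3 the 165 genes became 256 with DESeq2, 454 with no low-count filter, 360 with a replicate block, 301 with only the libraries of those 2 days, 43 under a stricter cell filter, 86 without members that hold other cells' markers (248 with Enpp2 off the choroid list, added after the data were seen), 70 without top Scrublet scores, and 11 to 386 with 1 library left out. At DIV5 against DIV3 the 0 became 9 with DESeq2, 98 unfiltered, 377 with the replicate block, 130 under a stricter gate, 6 (4) without other cells' markers, 4 after thinning, 8 without dividing members and 0 to 69 with 1 library left out. At DIV7 against DIV5 the 47 became 135, 264 and 250 with DESeq2, no filter and the replicate block, 0 with the 2 days only, 1 and 6 under a stricter and a looser gate, 1 under the stricter cell filter, 29 (201) without other cells' markers, 0 without top Scrublet scores, 108 after thinning, 2 without dividing members and 1 to 153 with 1 library left out. At DIV3 against DIV1 the 4 became 62 with DESeq2, 272 unfiltered, 181 with the 2 days only, 517 and 7 under the stricter and looser gates, 17 (7) without other cells' markers, 0 without top Scrublet scores, 32 after thinning, 50 without dividing members, 12 with the minimum of 5 cells and 36 to 384 with 1 library left out. These 2 days share only replicate number 1, so no pairing applies. Between the gates the 743 became 1315 unfiltered, 295 under the stricter cell filter, 308 after thinning, 302 without dividing members and 474 to 746 with 1 library left out, and 633 with no library block. The cause of these moves was not tested, apart from fewer cells or genes by construction.

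The difference in committed share, 45.3 points, was 39.6 with a limit of 4 UMIs, 14.0 and 25.5 after thinning to 5000 and 3000 UMIs, 53.9 under the stricter gate and 43.4 to 47.2 with 1 library left out. The difference in member share, −1.12 points, was −0.259 after thinning, −0.559 under the stricter gate, −1.35 under the stricter cell filter and −1.23 to −1.02 with 1 library left out. H19 at DIV7 against DIV5 reversed to −0.41 without members that hold other cells' markers, where DIV7 replicate 2 alone stood for DIV7. With 6 and 13 members at DIV7, depth limits every low gene there.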

Other observations

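Of the 373 members, 143 (38.3%) passed none of the precursor, committed or myelin gates, the largest number in DIV3 replicate 1 (49 of 78) and fewest at DIV7 (2 of 6 and 1 of 13). Summed over libraries, these cells were led, against the other members, by the collagens Col1a2 (94.8 against 18.8 CPM) and Col1a1 (112 against 25.1 CPM). Ifitm3, an interferon-induced membrane protein, was at 357 against 124 CPM. Serpina3n, a protease inhibitor of reactive glia, was at 521 against 209 CPM, and Lcn2, a secreted iron carrier of inflamed tissue, at 105 against 33.5 CPM. Fgfr3, a growth factor receptor of astrocytes and early glial progenitors, stood at 96.7 against 35.1 CPM. The gates chose these cells by what they lack and DIV3 replicate 1 gives them the most cells, so the values are a description with no test.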
